A study of Mus musculus with 8 samples.

Results

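The comparison described here is that of Med23-/- knockout with wild-type mouse embryonic fibroblasts in the serum-starved state. It used the 4 starved arrays of the 8 in the series, chosen by their labels alone, 2 from each genotype. Embryonic fibroblasts are connective tissue cells grown out of embryos, here taken at embryonic day 11 and carried in culture past crisis, the arrest that ends the growth of most primary cells and from which immortal lines grow out. Both genotypes were kept for 16 h in medium with 0.5% fetal bovine serum and then harvested. The other 4 arrays came from the same 2 genotypes given 20% serum for 30 min after that starvation and are used below for the same contrast after serum. Their signals do not enter the starved differences, but they do enter the spread behind the p-values, which was estimated over all 8 arrays. Total RNA was hybridised as a biotin-labelled sample, 1 array per sample, and all group values have n = 2 arrays. The starved cells were the study's baseline for its stated question of which serum-responsive genes are affected by the loss of MED23.

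MED23 is a subunit of Mediator, the multiprotein complex that bridges DNA-bound transcription factors and RNA polymerase II. It is known as a target of activators that act downstream of growth factor signalling, such as the phosphorylated ETS factor ELK1, and of the adenovirus activator E1A. Serum-starved fibroblasts largely leave the cell cycle and hold immediate early genes at a low level, so that this state shows how the lines differ before any stimulus. Each genotype was a single line that had passed through crisis, and so the loss of MED23 and other differences between the lines cannot be told apart. The labels do not say whether arrays 1 and 2 of a group came from separate cultures, so the p-values speak only to the spread among these arrays. In RNA from a whole culture, fewer cells of a kind and less RNA per cell cannot be told apart.

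Probe sets were tested when their signal reached the array's own 40th percentile (462 to 497) on 2 or more of the 4 starved arrays, which left 14292. Replicate arrays correlated across probe sets at 0.982 in wild-type and 0.977 in knockout cells, and arrays of different genotypes at 0.762 to 0.775. The ratio of 3' to 5' signal of the Tfrc control probe sets was 4.23 and 3.35 on the wild-type arrays and 3.06 and 1.89 on the knockout arrays. For beta-actin it was 1.05 and 1.05 on the wild-type and 1.06 and 1.03 on the knockout arrays. For Gapdh it was 0.78 and 0.84 on the wild-type and 0.77 and 0.78 on the knockout arrays. The part of these ratios in the results was not tested. Of 12 fibroblast markers 8 lay above the 40th percentile on all 4 arrays and 1, Thy1, below it on all 4, while Pdgfra and Lum lay below it on both wild-type arrays and Fbln2 on both knockout arrays. The summed signal of the 12, most of it from Vim, Fn1 and the collagens, was 173151 and 192230 in wild-type and 314916 and 385821 in knockout cells. Of epithelial markers 7 of 8 lay below the 40th percentile on all 4 arrays, as did 7 of 8 skeletal muscle, 6 of 8 endothelial and 6 of 9 leukocyte markers.

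Knockout and wild-type cells differed widely. With limma at an adjusted p under 0.05, here a call, 3386 probe sets (23.7%) were higher and 3637 (25.4%) lower in knockout cells. Over 1 probe set for each of 8103 genes the counts were 2037 higher (25.1%) and 2096 lower (25.9%), with a median log2 difference of -0.0042, and these percentages are the background for every gene list below. Under a rule of more than a 2-fold difference with no overlap of arrays, 1262 probe sets were higher (8.83%) and 1483 lower (10.4%). Without a rule on size, the arrays of the 2 genotypes did not overlap for 74.0% of all tested probe sets. An exact permutation test of 1 gene with 2 arrays against 2 cannot give a p below 0.333, so calls rest on a spread shared over the 8 arrays and all probe sets. Of the called probe sets, 511 of those higher passed the filter only through both knockout arrays, and 533 of those lower only through both wild-type arrays. The filter set the direction of these, so such genes are described by their values, with no p except where leaving out an array ended the call, and beside each list stands how many of its calls were of this kind (higher calls that passed only through the knockout arrays, lower calls only through the wild-type arrays). In all, 140 of the called probe sets were over 16-fold higher and 91 over 16-fold lower. All folds and log2 differences are on the scale of log2(signal + 16), which understates changes of dim probe sets, and low values of this array type are noisy.

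Med23 was the check of the genotypes. Its signal was 4901 and 5410.5 in wild-type and 28.00 and 133 in knockout cells. Both knockout arrays lay far below both wild-type arrays and below the 40th percentile, and the log2 difference was -6.00 ± 0.448 (SE). Without knockout array 1 or 2 the difference was -5.12 or -6.88, and no source used here places the probe set relative to the deleted part of Med23. Of the other 26 Mediator subunits tested, 11 were lower and 4 higher. The lower ones differed by less than 1 on the log2 scale: Med19 read 5066 and 5084 in wild-type and 2626 and 2706 in knockout cells, a difference of -0.92, and Cdk8, the kinase of the dissociable Mediator module, read 6212 and 5742 in wild-type and 3276 and 3096 in knockout cells, a difference of -0.90. Med8 (-0.88) and Med10 (-0.86), of the head and the middle part of the core complex, were also lower, while Med16 (0.72), a tail subunit like Med23, was higher. The median of the 27 subunits was -0.34. The count of 4 higher subunits was 2 without knockout array 2 or without either wild-type array, and the median was -0.17 without wild-type array 2.

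Of 28 genes for RNA polymerase II and its general factors 10 were lower and 2 higher, with a median of -0.23. Polr2b, the second largest polymerase subunit, read 10441 and 10639 in wild-type and 7125 and 5474 in knockout cells (-0.75), and Gtf2b, the factor that positions the polymerase at the start site, read 4162 and 5110.0 in wild-type and 3155 and 3012 in knockout cells (-0.58). The coactivator Crebbp moved the other way, from 1718 and 1841 in wild-type to 3315 and 3163 in knockout cells (0.86). The number of lower genes in this list was 4, 5 and 4 without knockout array 2, wild-type array 1 and wild-type array 2, and 5 when each array was centred on its median.

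The genes with the largest excess in knockout cells included secreted and matrix proteins. Slit3, a secreted guidance ligand, read 39.7 and 32.5 in wild-type and 14522 and 13936 in knockout cells, a difference of 8.10 ± 0.183. Cited1, a coactivator that binds CBP and p300, read 41.3 and 54.4 in wild-type and 15987 and 13005 in knockout cells, and its difference was 7.83 ± 0.200. In both genes the knockout arrays lay close together and far above the wild-type arrays. Tnmd, the tendon membrane protein tenomodulin, read 56.97 and 62.7 in wild-type and 14332 and 13021 in knockout cells (7.50). Agt, which encodes the angiotensin precursor, read 28.97 and 32.6 in wild-type and 7461 and 9105 in knockout cells (7.47). Ptn, the heparin-binding growth factor pleiotrophin, read 69.5 and 171 in wild-type and 17316 and 22868 in knockout cells (7.30), and a second Ptn probe set gave 9.01. Apod, a lipid carrier of the lipocalin family, read 184 and 119 in wild-type and 23112 and 25106 in knockout cells (7.20), and the matrix protein Svep1 122 and 223 in wild-type and 24343 and 23986 in knockout cells (7.06). None of these genes reached the 40th percentile on a wild-type array, so each passed the filter only through the knockout arrays and had to differ.

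Other genes in that group had wild-type arrays that differed from each other. Ctsz, a lysosomal cathepsin, read 11.3 and 125 in wild-type and 11094 and 13054 in knockout cells (7.60 ± 0.628), and Slc38a4, an imprinted amino acid transporter, 14.5 and 163 in wild-type and 9249 and 12371 in knockout cells (7.18 ± 0.631). The vasodilator peptide gene Adm read 23.2 and 103 in wild-type and 7706 and 7478 in knockout cells (6.80 ± 0.589), and the zinc finger factor Zic1 81.7 and 421 in wild-type and 21027 and 25084 in knockout cells (6.80 ± 0.509). In all 4 genes wild-type array 2 was the higher of the wild-type pair, and no array overlapped between genotypes. Mfap4, a microfibril protein, was dim on both wild-type arrays at 15.7 and 25.1 and read 4217 and 3926 in knockout cells (6.82). Abi3bp, another matrix protein, read 111 and 289 in wild-type and 20845 and 20707 in knockout cells (6.72), and Trim30d, a member of the TRIM family, 10.98 and 9.46 in wild-type and 2877 and 2638 in knockout cells (6.72).

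**Figure D1:**
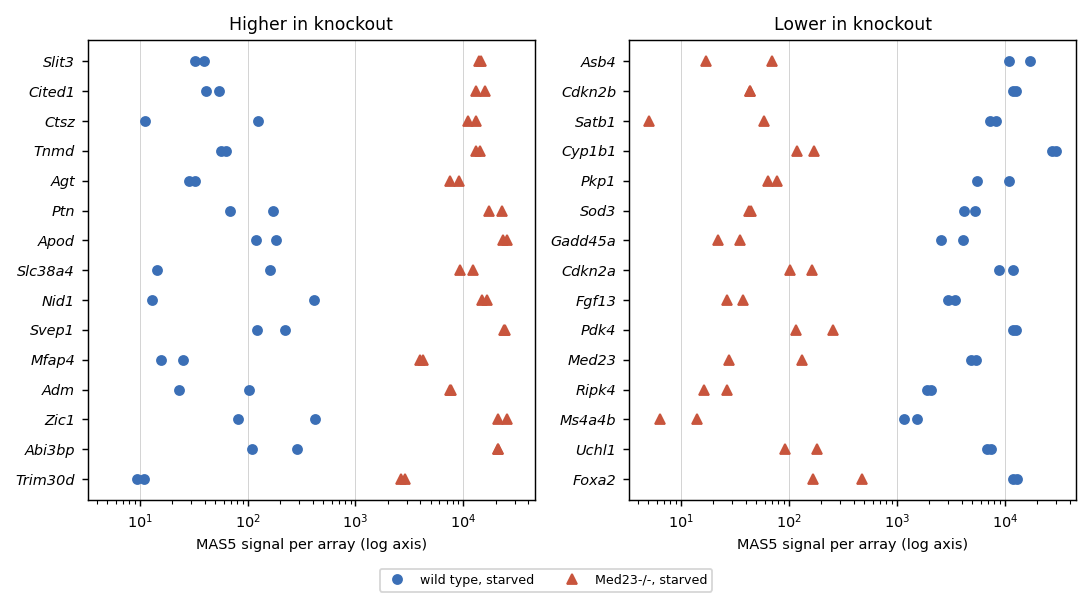
MAS5 signal on each of the 4 starved arrays (log axis) for the 15 called genes with the largest excess (left) and the 15 with the largest deficit (right) in knockout cells, with 1 symbol per array. The genes were drawn from those whose wild-type and knockout arrays do not overlap. Each passed the filter only through the genotype in which it was higher, which set its direction. The log2 differences run from 8.10 (Slit3) to 6.72 (Trim30d) and from -8.00 (Asb4) to -5.39 (Foxa2).

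At the other end, knockout cells held little of several genes that were bright in wild-type cells. Asb4, an imprinted gene of the ankyrin repeat and SOCS box family, read 10976 and 17178 in wild-type and 17.1 and 70.5 in knockout cells, a difference of -8.00 ± 0.440. Cyp1b1, a cytochrome P450 that oxidises steroids and aromatic hydrocarbons, read 29901 and 27572 in wild-type and 171 and 119 in knockout cells (-7.50 ± 0.303). Satb1, an organiser of chromatin loops, read 7311 and 8269 in wild-type and 5.10 and 58.7 in knockout cells (-7.62), and 2 other Satb1 probe sets gave -8.45 and -5.49. All knockout arrays of these genes, and of the others in this paragraph, were below the 40th percentile. Each passed the filter only through the wild-type arrays, which set its direction. Pkp1, a plaque protein of desmosomes, read 5555 and 11026 in wild-type and 64.4 and 77.2 in knockout cells (-6.50). Sod3, the extracellular superoxide dismutase, read 5333 and 4186 in wild-type and 43.2 and 44.8 in knockout cells (-6.30), and Pdk4, the kinase that inhibits pyruvate dehydrogenase, 11912 and 12848 in wild-type and 256.2 and 117 in knockout cells (-6.02). Genes usually linked to other lineages were among them: the forkhead factor Foxa2 of endoderm read 12993 and 12032 in wild-type and 167 and 474 in knockout cells (-5.39), the ubiquitin hydrolase Uchl1 of neurons 7431 and 6825 in wild-type and 92.6 and 182 in knockout cells (-5.60) and the keratinocyte kinase Ripk4 1896 and 2073 in wild-type and 26.8 and 16.3 in knockout cells (-5.75). Fgf13, an intracellular member of the fibroblast growth factor family, read 2994 and 3429.8 in wild-type and 37.3 and 26.9 in knockout cells (-6.07). Ms4a4b, a membrane protein known from lymphocytes, read 1533 and 1169.6 in wild-type and 6.36 and 14.1 in knockout cells (-5.71), while its other probe set, below the filter, gave 0.70.

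Genes with signal above the 40th percentile on all 4 arrays give differences that depend less on the added constant. Over these 12146 probe sets 2745 were called higher and 2906 lower. Col8a1, a short-chain collagen, read 578 and 628 in wild-type and 27574 and 24666 in knockout cells, which was 42.2-fold higher in knockout cells (5.40 ± 0.238, limma adjusted p = 1.33e-07). Ptprz1, a receptor phosphatase that binds pleiotrophin, read 532 and 1868 in wild-type and 28913 and 22325 in knockout cells (25.03-fold), with wild-type array 2 above wild-type array 1. Islr, a leucine-rich repeat protein of mesenchymal cells, was 20.4-fold higher and Scara5, a scavenger receptor that takes up ferritin, 20.4-fold. Slit2, the paralogue of Slit3, read 856 and 585 in wild-type and 12601 and 12709.5 in knockout cells (17.5-fold). Npr3, the clearance receptor of natriuretic peptides, read 1359.7 and 1815 in wild-type and 23943 and 23136 in knockout cells (14.8-fold), and the forkhead factor Foxc1 839 and 1205 in wild-type and 14782 and 15949.6 in knockout cells (15.04-fold). Steap4, a metalloreductase, was 15.5-fold higher. No array overlapped between genotypes for any of these, which was a condition of their choice.

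Among genes lower on that footing, Cd24a, a glycosylphosphatidylinositol-anchored surface glycoprotein, read 21071 and 19341 in wild-type and 564 and 625 in knockout cells, 33.2-fold lower in knockout cells (-5.05 ± 0.131, limma adjusted p = 6.03e-09). Ltbp1, which holds latent TGF-beta in the matrix, read 20012 and 18155 in wild-type and 467 and 685 in knockout cells (32.8-fold lower). Tnfrsf11b, the decoy receptor osteoprotegerin, read 12847 and 16906 in wild-type and 511 and 503 in knockout cells (28.2-fold lower). For the 3 genes both wild-type arrays lay far above both knockout arrays. Gja1, the main gap junction connexin of fibroblasts, read 17540.0 and 13841 in wild-type and 1047 and 1129 in knockout cells (14.1-fold lower), and its 5 other probe sets gave -4.29 to -1.26 on the log2 scale. Slc20a1, a sodium-phosphate cotransporter, read 15566 and 16479.7 in wild-type and 720.2 and 834 in knockout cells (20.3-fold lower). Bcat1, the cytosolic aminotransferase of branched-chain amino acids, read 6775 and 10229.8 in wild-type and 463 and 721 in knockout cells (14.05-fold lower). Gng11, Parm1, Olfml2b and Rflnb were lower, at -4.80, -4.58, -4.13 and -4.08 on the log2 scale.

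The 2 wild-type arrays stood apart for a few genes. Col1a2, the alpha-2 chain of type I collagen, read 581 on wild-type array 1 and 8871 on wild-type array 2, against 69881 and 91077 on the knockout arrays. Its difference was 5.11 ± 1.19 (limma adjusted p = 0.00532), and it was 3.17 without wild-type array 1 and 7.06 without wild-type array 2. Nid1, a basement membrane linker protein, read 13.0 and 411 on those arrays and 16562 and 14951 on the knockout arrays (7.14 ± 1.22). The stimulated wild-type arrays split likewise, at 743 and 9443 for Col1a2 and 18.2 and 459 for Nid1, with array 2 again the higher. These are 2 cases of a small group: of the 3386 probe sets called higher, 60 were over 2-fold higher on wild-type array 2 than on wild-type array 1 and 49 the reverse. Of the 3637 called lower, 79 were over 2-fold higher on knockout array 2 than on knockout array 1 and 61 the reverse.

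Gene lists put these differences in groups. The lists of collagens, of proteoglycans and glycoproteins, of Wnt genes, of fibroblast and platelet-derived growth factors and of mesenchymal transcription factors held more higher than lower members. The cell cycle, ATF4, p53, integrin and matrix protease lists held more lower members, and the collagen-processing, IGF and EGF lists as many of each. Of 881 list entries on the array, those that failed the filter reached the 40th percentile on fewer than 2 starved arrays and are not counted. Genes described below beyond the 5 called members of each list with the largest difference were chosen after their values were seen. The counts below set each list beside 25.1% higher and 25.9% lower over all tested genes.

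**Figure D2:**
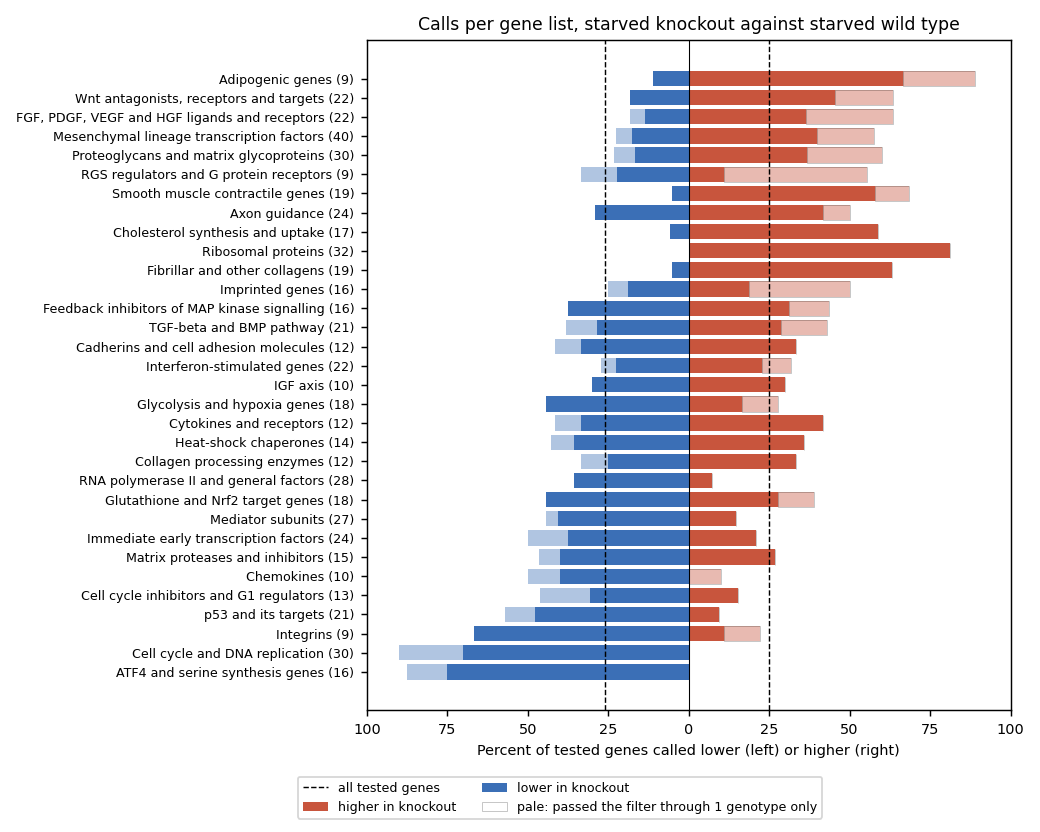
Percent of the tested genes of each list (number tested in brackets, lists with 9 or more) that were called higher (right) or lower (left) in starved knockout cells; the dashed lines mark the shares over all 8103 tested genes, 25.1% higher and 25.9% lower. Pale ends are calls of genes that passed the filter only through the genotype in which they were higher. The lists are ordered by their median log2 difference, and 2 of the 8 higher adipogenic genes and 2 of the 14 lower ATF4 and serine synthesis genes are pale.

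Genes of DNA replication and mitosis were lower in starved knockout cells as a group. Of 30 tested genes 27 were lower (6 only through the wild-type arrays) and 0 higher, with a median log2 difference of -1.60, or -1.23 without knockout array 1. The proliferation marker Mki67 read 3109 and 3897 in wild-type and 470.2 and 536 in knockout cells, a difference of -2.75 ± 0.190 (limma adjusted p = 2.07e-06). Both knockout arrays lay below both wild-type arrays. Bub1 and Bub1b, kinases of the spindle checkpoint, read 2014 and 2303 in wild-type and 217 and 461 in knockout cells (-2.70) and 2163 and 2539.7 in wild-type and 311 and 556 in knockout cells (-2.45). Cenpa, the centromeric histone, read 1886 and 1919 in wild-type and 232 and 389.7 in knockout cells (-2.60), and cyclin A2, Ccna2, 4408 and 5021 in wild-type and 779 and 991 in knockout cells (-2.40). For each of these mitotic genes knockout array 1 was the lower of the pair. Replication licensing genes were also lower: Mcm2 differed by -2.15, Mcm3 by -1.64, Mcm6 by -1.22, Mcm7 by -0.69 and Mcm4 by -0.60. Mcm4 and Rrm1 lost their calls without wild-type array 1, with adjusted p = 0.0690 and 0.0617. The S phase enzymes Tk1 (-1.50), Rrm2 (-1.17) and Rrm1 (-0.54) and the sliding clamp Pcna (-0.90) were lower too. Aurkb (-0.99), Ccnb2 (-0.44) and E2f1 (0.32) did not pass the test.

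**Figure D3:**
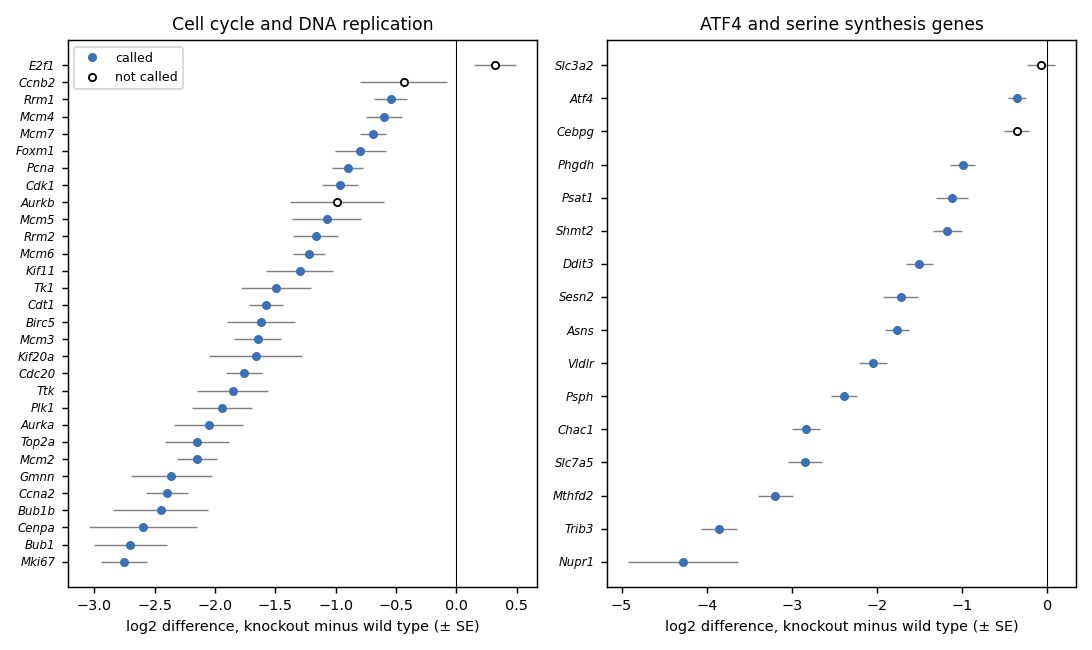
Log2 difference, knockout minus wild type, in starved cells with its SE for each tested gene of the cell cycle list (left) and of the ATF4 and serine synthesis list (right), 2 arrays per genotype; filled points were called. All called points lie below 0, from -2.75 (Mki67) to -0.54 (Rrm1) on the left and from -4.28 (Nupr1) to -0.36 (Atf4) on the right.

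Promoters of cell cycle genes are known to share CCAAT boxes and the cell cycle homology region, CHR, and the letters of both were searched in the promoters of these genes. Promoters were 250 bases before to 50 after each gene's start in RefSeq, GRCm38.p6, and these motifs were chosen after the values were seen. TTTGAA (CHR) was found on either strand in 12 of 24 promoters of the list, against 11.5% of the 6620 tested genes with a promoter and 18.1% of all 27025 promoters. CCAAT was found in 20 of 24 (83.3%), against 38.8% and 37.9%. The list was built from known cell cycle genes, so these shares describe the list and not the knockout. Among all genes called lower and higher, CHR was in 13.7% and 10.6% and CCAAT in 40.2% and 37.1%. The promoters of Mki67 (chr7:135716330-135716629, minus strand), Cenpa (chr5:30666636-30666935, plus strand) and Bub1b (chr2:118597961-118598260, plus strand) are shown because these 3 genes are among the lowest of the list and hold the CHR letters. Capitals mark TTTGAA and CCAAT on either strand.
Mki67: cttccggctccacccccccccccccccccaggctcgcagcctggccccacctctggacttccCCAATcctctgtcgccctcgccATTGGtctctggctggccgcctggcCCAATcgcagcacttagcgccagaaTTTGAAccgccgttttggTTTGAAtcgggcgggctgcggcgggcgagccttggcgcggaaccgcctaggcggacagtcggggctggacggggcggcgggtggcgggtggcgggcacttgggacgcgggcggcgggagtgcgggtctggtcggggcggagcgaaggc
Cenpa: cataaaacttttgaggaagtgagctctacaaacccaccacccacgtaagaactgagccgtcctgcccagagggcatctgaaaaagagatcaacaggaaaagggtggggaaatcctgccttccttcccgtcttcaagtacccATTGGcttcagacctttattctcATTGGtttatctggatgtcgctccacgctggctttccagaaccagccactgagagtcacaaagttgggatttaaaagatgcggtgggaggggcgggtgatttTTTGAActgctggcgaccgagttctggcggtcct
Bub1b: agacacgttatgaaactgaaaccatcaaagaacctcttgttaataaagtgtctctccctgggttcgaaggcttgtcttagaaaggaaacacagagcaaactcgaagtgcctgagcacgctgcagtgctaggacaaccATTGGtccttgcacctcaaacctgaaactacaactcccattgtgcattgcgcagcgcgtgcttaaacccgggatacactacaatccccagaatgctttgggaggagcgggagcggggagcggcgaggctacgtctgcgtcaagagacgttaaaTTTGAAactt
The Mki67 promoter held 2 CHR matches and 3 CCAAT boxes, that of Cenpa 1 and 2, and that of Bub1b 1 of each. The letters of the motifs do not contain one another, and a match is a description of the sequence only.

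Some inhibitors of the cell cycle were lower as well. Cdkn2b and Cdkn2a, neighbouring genes that encode the inhibitors p15INK4b, p16INK4a and the p53 activator ARF, were among the largest differences of all. Cdkn2b read 11875 and 12765 in wild-type and 43.8 and 44.1 in knockout cells (-7.68 ± 0.222), and Cdkn2a 8939 and 11889 in wild-type and 102 and 162 in knockout cells (-6.15 ± 0.357). All 4 knockout values were near the floor of the arrays. The 4 other tested genes within 1 Mb of Cdkn2a besides Cdkn2b, a window chosen after these values were seen, had signal in knockout cells: Mtap, the nearest on the other side, read 15548 and 17897 in wild-type and 9192 and 9811 in knockout cells (-0.81), Klhl9 6397 and 5509 in wild-type and 6564 and 6831 in knockout cells (0.17, not called) and Hacd4 4493 and 5043 in wild-type and 9693 and 8743 in knockout cells (0.95). Ifnz read 564 and 476 in wild-type and 723 and 931 in knockout cells (0.65, not called). Cdkn2c, an inhibitor of the same family on a distant locus, was higher, with 3153 and 3049.7 in wild-type and 12858 and 13436 in knockout cells (2.08 ± 0.108). The pocket protein Rbl1 read 1840.1 and 1744 in wild-type and 427 and 502 in knockout cells (-1.92) and cyclin D2, Ccnd2, 24072 and 21218 in wild-type and 12312 and 8695 in knockout cells (-1.13), while Rbl2 was higher by 1.07. Cdkn1a (-1.20), Cdkn1b (-0.10) and Cdk4 (-0.24) did not pass the test. In the list of 13, 6 were lower (Cdkn2a and Cdkn2b only through the wild-type arrays) and 2 higher, with a median of -0.59, or -0.37 without knockout array 2.

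Genes known as targets of p53 were more often lower than higher, with 12 of 21 lower (Gadd45a and Gtse1 only through the wild-type arrays), 2 higher and a median of -0.60. Gadd45a, a stress-induced growth arrest gene, read 2576 and 4091 in wild-type and 35.5 and 21.9 in knockout cells (-6.21 ± 0.307). Its knockout arrays lay near the floor. Gtse1, a regulator of p53 levels in G2 phase, read 918 and 882 in wild-type and 161 and 55.1 in knockout cells (-3.03), and Zmat3, a zinc finger RNA-binding protein, 12923 and 11654 in wild-type and 3811 and 5049.8 in knockout cells (-1.48). The apoptosis genes Pmaip1 (-1.23) and Bbc3 (-1.16) and the p53 ubiquitin ligase Mdm2 (-0.73) were lower, and Sesn1 (0.98) and Apaf1 (0.40) were higher. Apaf1 lost its call without either starved knockout array or without wild-type array 1, with adjusted p of 0.0526, 0.155 and 0.249.

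Genes driven by ATF4, the transcription factor of the integrated stress response, and genes of serine and one-carbon synthesis were lower in knockout cells in 14 of 16 cases (Nupr1 and Trib3 only through the wild-type arrays), with 0 higher and a median of -1.74. Leaving out single arrays gave medians from -1.99 to -1.55. Nupr1, a stress-induced nuclear protein, read 4670.4 and 5973 in wild-type and 163 and 402 in knockout cells (-4.28 ± 0.644). Trib3, a pseudokinase that feeds back on ATF4, read 2413 and 3324 in wild-type and 184 and 177 in knockout cells (-3.86 ± 0.208). Mthfd2, the mitochondrial folate dehydrogenase, read 5623 and 8333 in wild-type and 614 and 873 in knockout cells (-3.20 ± 0.206, adjusted p = 1.34e-06). The genotypes did not overlap in Mthfd2, while the filter set the direction of Nupr1 and Trib3. Slc7a5, which takes up large neutral amino acids, read 13729 and 16146 in wild-type and 2582 and 1638 in knockout cells (-2.85), and Chac1, an enzyme that degrades glutathione, 4343 and 5382 in wild-type and 694 and 634 in knockout cells (-2.84). The serine synthesis enzymes Psph (-2.38), Psat1 (-1.13) and Phgdh (-0.99) and asparagine synthetase, Asns (-1.77), were all lower. Atf4 itself differed by -0.36, from 15596 and 17358 in wild-type to 13052 and 12645 in knockout cells, and lost its call without wild-type array 2 (adjusted p = 0.0872). Slc3a2 (-0.074) and Cebpg (-0.36) did not pass the test.

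ATF4 is known to bind composite C/EBP-ATF elements, CARE, and their letters TGATGNAA were searched on either strand, a motif chosen after the values were seen. They were found in 4 of 15 promoters of the list (26.7%), against 2.04% of the 6620 tested genes with a promoter and 4.06% of all 27025 promoters. The list was built around genes known to be driven by ATF4, so its share describes the list and not the knockout. Among all genes called lower and higher the shares were 2.73% and 2.27%. The 4 promoters are printed from RefSeq, GRCm38.p6, with the matching bases in capitals, because they belong to genes lower in knockout cells: Nupr1 (chr7:126625421-126625720, minus strand), Trib3 (chr2:152344011-152344310, minus strand), Chac1 (chr2:119350992-119351291, plus strand) and Asns (chr6:7693160-7693459, minus strand).
Nupr1: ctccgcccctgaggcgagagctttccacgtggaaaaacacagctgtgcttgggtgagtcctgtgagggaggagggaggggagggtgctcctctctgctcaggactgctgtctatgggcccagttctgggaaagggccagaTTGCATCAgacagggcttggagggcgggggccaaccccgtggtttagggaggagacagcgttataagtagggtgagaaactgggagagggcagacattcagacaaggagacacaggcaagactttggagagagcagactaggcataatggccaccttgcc
Trib3: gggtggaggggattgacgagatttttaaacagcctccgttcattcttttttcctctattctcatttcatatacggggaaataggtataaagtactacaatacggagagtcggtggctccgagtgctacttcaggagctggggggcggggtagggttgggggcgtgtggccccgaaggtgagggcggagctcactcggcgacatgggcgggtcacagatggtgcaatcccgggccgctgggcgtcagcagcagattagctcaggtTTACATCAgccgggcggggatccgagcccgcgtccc
Chac1: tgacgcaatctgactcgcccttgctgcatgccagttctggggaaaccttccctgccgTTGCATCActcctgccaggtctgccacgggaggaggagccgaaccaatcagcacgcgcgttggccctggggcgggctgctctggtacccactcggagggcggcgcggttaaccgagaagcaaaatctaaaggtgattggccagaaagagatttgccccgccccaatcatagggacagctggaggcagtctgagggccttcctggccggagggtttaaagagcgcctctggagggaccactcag
Asns: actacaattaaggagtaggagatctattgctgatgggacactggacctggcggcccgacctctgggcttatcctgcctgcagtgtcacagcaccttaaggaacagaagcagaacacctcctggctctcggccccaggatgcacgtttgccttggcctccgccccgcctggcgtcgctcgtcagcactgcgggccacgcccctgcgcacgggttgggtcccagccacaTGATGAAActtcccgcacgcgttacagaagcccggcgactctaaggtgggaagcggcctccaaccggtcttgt
Each held 1 match in this window.

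Immediate early transcription factors, the class known to respond first to serum, were lower more often than higher in the starved knockout cells. Of 24 tested, 12 were lower (Jun, Atf3 and Fosl1 only through the wild-type arrays) and 5 higher, with a median of -0.38. Jun, a subunit of the AP-1 factor, read 2552 and 2818 in wild-type and 84.01 and 109 in knockout cells (-4.59 ± 0.140), while its other probe set lay at -1.58. Atf3, a stress-induced factor of the same bZIP class, read 1042 and 1383 in wild-type and 164 and 23.6 in knockout cells (-3.85 ± 0.527). Egr1, a zinc finger factor, read 6993 and 7545 in wild-type and 1336 and 1965 in knockout cells (-2.15 ± 0.156, adjusted p = 2.88e-06). Both wild-type arrays were above both knockout arrays for Egr1, while the filter set the direction of Atf3 and of the first Jun probe set. The other Jun probe set read 1458 and 1945 in wild-type and 593 and 512.5 in knockout cells. It lay above the 40th percentile on all 4 arrays. The AP-1 relatives Fosl2 (-1.83), Jund (-1.39), Junb (-1.22) and Fosl1 (-1.20) were lower as well, as were Klf10 (-1.53) and Ier2 (-1.03). Fos itself was higher, with 916 and 737 in wild-type and 1862 and 1359 in knockout cells (0.94). Klf2, a Kruppel-like factor, read 762 and 464 in wild-type and 2175 and 2326 in knockout cells (1.89), and Srf, the serum response factor, 3781 and 4434 in wild-type and 8692 and 9269.8 in knockout cells (1.13). Myc (-0.25), Nr4a1 (0.13) and Egr3 (0.26) did not pass the test. Of the 6 tested genes of the SRF cofactor list, Srf included, 2 were higher and 2 lower. Elk4 was lower, at -0.82, though another of its probe sets gave 0.09. Elk3 (-0.50) lost its call without knockout array 1 or wild-type array 1, with adjusted p of 0.129 and 0.167. Mrtfa (0.39) lost its call without either knockout array or without wild-type array 2, with adjusted p of 0.0767, 0.0513 and 0.183.

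Feedback inhibitors of MAP kinase signalling moved in both directions. The phosphatases Dusp14 (-3.29), Dusp6 (-1.67), Dusp1 (-1.55) and Dusp16 (-1.37) were lower. Dusp6, which dephosphorylates ERK, read 7815 and 4867 in wild-type and 2266 and 1641 in knockout cells. The Sprouty and Spred proteins, which act at the level of Ras and Raf, held higher members: Spry2 read 878 and 701 in wild-type and 3351 and 3432 in knockout cells (2.09 ± 0.141, limma adjusted p = 1.79e-06), and Spred1 and Spred2 differed by 0.85 and 0.67. Dusp10, which acts on JNK and p38, was higher by 1.34, and Errfi1, which restrains EGF receptor kinase, by 1.19. In all, 7 of 16 were higher (2 only through the knockout arrays) and 6 lower, with a median of 0.12 that was -0.047 without knockout array 1 and -0.060 without wild-type array 1.

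Collagens and other matrix genes were more often higher than lower in knockout cells. Of 19 collagen genes 12 were higher and 1 lower, with a median of 0.40, and 7 were higher without wild-type array 1. Quantile normalization gave a median of 0.23. Col6a3 read 721 and 1098 in wild-type and 8601 and 9407 in knockout cells (3.31), Col11a1 7126 and 7839.6 in wild-type and 34774 and 32494 in knockout cells (2.17) and Col3a1 8532 and 12893 in wild-type and 49735 and 51193 in knockout cells (2.26), with a second Col3a1 probe set at 4.13. Col1a1, the partner chain of Col1a2 in type I collagen, read 43588 and 48972 in wild-type and 54334 and 59615 in knockout cells (0.30). It lost its call without knockout array 2 or wild-type array 1, with adjusted p of 0.0978 and 0.121, and gave -0.12 after quantile normalization. Col18a1, which is cleaved to endostatin, was the lower one, at 1474 and 1284 in wild-type and 252 and 967 in knockout cells (-1.44). Its difference was -0.50 without knockout array 1 and -2.38 without knockout array 2, and its adjusted p was 0.107 and 0.0696 without wild-type array 1 and 2. Among proteoglycans and glycoproteins 18 of 30 were higher (7 only through the knockout arrays) and 7 lower (2 only through the wild-type arrays), with a median of 0.75. Nid2, the relative of Nid1, read 169.6 and 399 in wild-type and 9065 and 10188 in knockout cells (5.12), and Tgfbi, an adhesion protein induced by TGF-beta, 406 and 408 in wild-type and 10909 and 8184 in knockout cells (4.48). The small leucine-rich proteoglycans moved apart: Fmod (3.80), Omd (3.19) and Lum (3.19) were higher, and Dcn, at 8105 and 4941 in wild-type and 3499.7 and 2365 in knockout cells, was lower (-1.13, adjusted p = 0.0507 without wild-type array 1). Fbln2, a fibulin, read 5574 and 4248 in wild-type and 225 and 437 in knockout cells (-3.89), while Fbln1 was higher by 2.82. The large proteoglycan Vcan was higher by 3.05, and fibronectin, Fn1, read 49962 and 51747 in wild-type and 45282 and 58994 in knockout cells (0.024) and did not pass the test. The count of 7 lower genes was 4 without wild-type array 1 and 11 after quantile normalization.

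Enzymes that process the matrix lay on both sides. Of 12 collagen-processing genes 4 were higher and 4 lower (Pcolce2 only through the wild-type arrays). Pcolce, an enhancer of procollagen cleavage, read 12359.9 and 6998 in wild-type and 30683 and 34546 in knockout cells (1.81), and its relative Pcolce2 849 and 656 in wild-type and 30.2 and 13.7 in knockout cells (-4.37). The cross-linking oxidases Loxl1 (1.37) and Loxl3 (1.40) were higher, and the lysyl hydroxylases Plod1 (-1.11) and Plod2 (-1.31) lower. Of 15 proteases and inhibitors 4 were higher and 7 lower (Mmp3 only through the wild-type arrays). Serpinf1, the secreted serpin PEDF, read 243 and 732 in wild-type and 35936 and 31998 in knockout cells (6.27 ± 0.434, limma adjusted p = 2.11e-06). The aggrecanases Adamts1 and Adamts5 read 3984 and 7123 in wild-type and 23893 and 32806 in knockout cells (2.39) and 1113 and 1126 in wild-type and 9013 and 8421 in knockout cells (2.94). Timp1, an inhibitor of metalloproteases, read 13964 and 14223 in wild-type and 5439 and 4548 in knockout cells (-1.50). Mmp3 read 1998 and 503 in wild-type and 138 and 265 in knockout cells (-2.30) and was -1.32 without wild-type array 1, with adjusted p = 0.0524. The median of the proteases was -0.54, or -0.24 and -0.23 without knockout array 1 and wild-type array 1.

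Cell surface receptors for the matrix and for other cells moved in both directions. Of 9 integrins 6 were lower and 2 higher (Itga8 only through the knockout arrays). Itga8, a receptor for nephronectin, read 318 and 229 in wild-type and 6296 and 7782 in knockout cells (4.62 ± 0.224). Itga3, a laminin receptor chain, read 7946 and 7319 in wild-type and 1839 and 2155 in knockout cells (-1.93), and 2 other probe sets of it gave -4.51 and -2.82. Itgb5 read 18641 and 22171 in wild-type and 8700.2 and 7984 in knockout cells (-1.28). The number of lower integrins was 3 without knockout array 1 or wild-type array 2, and Itga7 and Itga9 were among those lost. Among adhesion molecules, Cdh11, a cadherin of mesenchymal cells, read 7167 and 6833 in wild-type and 27922 and 30861 in knockout cells (2.07), and Alcam was higher by 1.52. Cadm1, an immunoglobulin-like adhesion protein, read 7977 and 5195 in wild-type and 468 and 449.7 in knockout cells (-3.77), and Cdh13 (-1.86) and Ncam1 (-1.31) were lower too. In that list 4 of 12 were higher, but 2 without knockout array 2 or either wild-type array, and 5 were lower (1 only through the wild-type arrays). Of 24 axon guidance genes 12 were higher (Slit3 and Sema3b only through the knockout arrays) and 7 lower. Besides the Slit ligands, the netrin receptor Unc5c read 272 and 706 in wild-type and 5824 and 6125 in knockout cells (3.71), and the semaphorin Sema3b 106 and 32.1 in wild-type and 939.7 and 946 in knockout cells (3.65). Epha4, an ephrin receptor, read 8989.6 and 11219.9 in wild-type and 1831 and 1658 in knockout cells (-2.52), and the netrin ligand Ntn1 was lower, at -2.05. Robo1, the receptor of Slit ligands, was higher by 1.01.

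Wnt pathway genes were higher in 14 of 22 cases (4 only through the knockout arrays) and lower in 4, with a median of 1.35. Secreted antagonists were among them: Sfrp1 read 439 and 593 in wild-type and 17856 and 18304 in knockout cells (5.10 ± 0.175, limma adjusted p = 2.96e-08), with 3 other probe sets at 7.74, 5.72 and 2.90. Sfrp2 read 3390.3 and 2679 in wild-type and 33989 and 32496 in knockout cells (3.46), Frzb 55.3 and 29.4 in wild-type and 739.6 and 798 in knockout cells (3.79) and Dkk3 1393 and 386 in wild-type and 5629.7 and 6688 in knockout cells (3.03). Of the frizzled receptors, Fzd7 (2.43), Fzd4 (2.40), Fzd1 (1.91), Fzd8 (1.12) and Fzd2 (0.92) were higher, and Fzd6 (-2.39) was lower. The coreceptors Lrp5 and Lrp6 were higher by 1.48 and 1.54, and the ligand Wnt5a was lower, at -1.22. The lower count was 2 without knockout array 2.

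Receptors and ligands of fibroblast and platelet-derived growth factors also differed widely, with 14 of 22 higher (6 only through the knockout arrays, Pdgfra, Fgfr3, Fgf18, Ptn and Mdk among them), 4 lower (1 only through the wild-type arrays) and a median of 1.15. Pdgfra, a receptor that marks mesenchymal precursors, read 124 and 129 in wild-type and 11152 and 15782 in knockout cells (6.54 ± 0.217), and Pdgfrb was higher by 1.40. Of its ligands, Pdgfb and Pdgfc were lower, at -2.91 and -2.15, and Pdgfa (-0.049) did not pass the test. Fgfr3 read 407 and 222 in wild-type and 5947 and 6618 in knockout cells (4.31), and Fgf18, a ligand that signals through it, 32.8 and 30.1 in wild-type and 1574 and 1196 in knockout cells (4.87). Fgf7, a growth factor for epithelia, read 22420.4 and 16385 in wild-type and 1418 and 1670.1 in knockout cells (-3.62). Mdk, the midkine relative of pleiotrophin, read 285 and 230.3 in wild-type and 7676 and 6132 in knockout cells (4.66). In the EGF family Egfr read 1771 and 1612 in wild-type and 4829 and 4688 in knockout cells (1.48), and its ligand Hbegf 2629 and 3057 in wild-type and 682 and 589.9 in knockout cells (-2.13).

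TGF-beta and BMP genes lay at both ends. The ligands Tgfb1 and Tgfb2 read 5519 and 4643 in wild-type and 457 and 294 in knockout cells (-3.73) and 5059.6 and 6523 in wild-type and 1364 and 1036 in knockout cells (-2.26), both lower in knockout cells. Bmp4 was higher by 2.15, and the antagonist Fst (-2.22) was lower. Id proteins, which block bHLH factors and are known targets of BMP signalling, were higher: Id2 read 133 and 75.97 in wild-type and 2239 and 2440.4 in knockout cells (4.33 ± 0.233), Id4 185 and 194 in wild-type and 2162 and 2949 in knockout cells (3.63 ± 0.193), and Id1 and Id3 differed by 2.10 and 0.88. Smad6, an inhibitory Smad, was higher by 1.90, while Smad7 (-0.15) did not pass the test. The list gave 9 of 21 higher (3 only through the knockout arrays, Id2 and Id4 among them) and 8 lower (2 only through the wild-type arrays, Tgfb1 among them), or 5 lower without wild-type array 1, with a median of 0.028. In the insulin-like growth factor axis, Igf2 read 24403 and 19699 in wild-type and 4217 and 3319.5 in knockout cells (-2.55), Igfbp7 17443 and 13844 in wild-type and 3725 and 4629 in knockout cells (-1.90) and Igfbp4, which holds the ligands in the medium, 2055 and 1331 in wild-type and 22228 and 17119 in knockout cells (3.55). Irs1, the adaptor of the insulin and IGF receptors, read 6257 and 6579.9 in wild-type and 37157 and 44210.5 in knockout cells (2.66). Of 10 genes 3 were higher and 3 lower, and the median was -0.028, or 0.27 without knockout array 1.

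Transcription factors of mesenchymal lineages were higher in 23 of 40 cases (7 only through the knockout arrays) and lower in 9 (2 only through the wild-type arrays), with a median of 0.84. Osr2, an odd-skipped factor of limb and palate, read 25.04 and 22.2 in wild-type and 1313 and 833 in knockout cells (4.75), and Sox9, the master factor of cartilage, 687 and 404 in wild-type and 6344 and 5938 in knockout cells (3.50 ± 0.264, limma adjusted p = 3.68e-06). Twist2 (3.41), Foxd1 (2.99), Nr2f1 (2.86), Foxc2 (2.33), Snai2 (2.32), Six2 (2.32) and Prrx1 (1.93) were also higher. Lower ones besides Satb1 were Meis1 (-2.44), Runx1 (-1.89) and Sox11 (-1.60). Of 39 Hox genes 31 were on the array and 4 passed the filter: Hoxd8 read 85.8 and 247 in wild-type and 6126 and 4455 in knockout cells, Hoxd9 165 and 160.2 in wild-type and 3376 and 3222 in knockout cells (4.21) and Hoxa3 1129.7 and 1416 in wild-type and 238 and 276 in knockout cells (-2.23), and Hoxa9 (-0.62) did not pass the test. Hoxd8 and Hoxd9, neighbours in the HoxD cluster, passed only through the knockout arrays, and Hoxa3 only through the wild-type arrays. Of 4 tested cartilage and bone markers Sox9 was higher and 2 were lower: Col2a1 read 15124 and 13874 in wild-type and 2598 and 1849 in knockout cells (-2.72), and Acan 557 and 895 in wild-type and 237 and 352 in knockout cells (-1.24), which passed only through the wild-type arrays and lost its call without knockout array 1 or wild-type array 2, with adjusted p of 0.165 and 0.212. Col11a1, another cartilage collagen, was higher, as given above.

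Smooth muscle contractile genes were higher in 13 of 19 cases (Lmod1 and Itga8 only through the knockout arrays) and lower in 1, with a median of 0.55 that was 0.27 after quantile normalization. Lmod1, which nucleates actin filaments in smooth muscle, read 476 and 357 in wild-type and 2427 and 1828 in knockout cells (2.31), Actg2, enteric actin, 636 and 484 in wild-type and 1491 and 2045 in knockout cells (1.63) and Myl9, the regulatory light chain, 15336 and 13719 in wild-type and 42206 and 44131 in knockout cells (1.57). Acta2, the actin of myofibroblasts, differed by 0.55. Cnn1, calponin, was lower, at 3945 and 4601 in wild-type and 1855 and 1396 in knockout cells (-1.40 ± 0.159, limma adjusted p = 6.38e-05). Of 17 adipogenic genes on the array 9 passed the filter, and 8 of these were higher and 1 lower. Zfp423 and Lpl passed only through the knockout arrays. Zfp423, a commitment factor of preadipocytes, read 8.90 and 15.8 in wild-type and 497 and 1013 in knockout cells (4.69), Cebpa 707 and 425 in wild-type and 4244 and 3222 in knockout cells (2.72) and lipoprotein lipase, Lpl, 126 and 142 in wild-type and 2136 and 2116 in knockout cells (3.83). The markers of mature adipocytes Pparg, Fabp4, Adipoq and Cd36 did not pass the filter, and the summed signal of 6 adipocyte markers, 4 of them below the 40th percentile on all 4 arrays, was 1146 and 949 in wild-type and 6577 and 5642 in knockout cells. Neural markers went the other way, with sums of 7157 and 7051 against 3743 and 3526: Tubb3, Stmn2 and Nes were lower, at -4.18, -3.17 and -2.56, and Map2 was higher by 2.26, with Tubb3 and Stmn2 having passed only through the wild-type arrays and Map2 only through the knockout arrays. Without knockout array 1 the difference of Stmn2 was -2.08, and another Nes probe set gave -0.21. The part of other cell types in these differences was not tested.

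Imprinted genes were among the largest differences in both directions. Of 16 tested, 8 were higher (5 only through the knockout arrays, Slc38a4, Sgce, Mest and Nnat among them) and 4 lower (Asb4 only through the wild-type arrays). Besides Slc38a4 and Asb4, Sgce read 208 and 231 in wild-type and 8209 and 7646 in knockout cells (5.08), Mest 393 and 344 in wild-type and 6198 and 7693 in knockout cells (4.17) and Nnat 48.3 and 96.6 in wild-type and 2445 and 962 in knockout cells (4.19). Plagl1 was higher by 3.45, and Igf2 and Ndn were lower, at -2.55 and -2.29. Peg3 differed by 0.36, and Meg3 (0.34), Gnas (-0.018) and Igf2r (0.20) did not pass the test. Of the Y-linked genes, Kdm5d read 1382 and 1282 in wild-type and 3019 and 3346 in knockout cells (1.25). Eif2s3y read 1866 and 1299 in wild-type and 3305 and 3932 in knockout cells (1.20). Uty was higher by 0.80, or 0.71 without knockout array 2 or wild-type array 2, and Usp9y did not pass the filter. Xist read 299 and 355 in wild-type and 586 and 595 in knockout cells (0.83) and passed only through the knockout arrays. Other Xist probe sets, below the filter, gave -0.10 and 0.05.

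Secreted signals of inflammation were mixed. Of 10 chemokines 5 were lower (Ccl9 only through the wild-type arrays) and 1 higher. Ccl5 and Ccl9, attractants of leukocytes, read 6446 and 8354 in wild-type and 517 and 106 in knockout cells (-4.85) and 4705 and 10759 in wild-type and 409 and 406 in knockout cells (-4.07), and Ccl2, the main monocyte attractant, 3788 and 1988 in wild-type and 679 and 799.8 in knockout cells (-1.87). The higher one, Ccl8 (0.80), passed only through the knockout arrays and lost its call without any single starved array, with adjusted p from 0.0516 to 0.177. Lif, a cytokine of the interleukin 6 family, read 3057 and 4593 in wild-type and 180.1 and 443 in knockout cells (-3.65), whereas its receptor Lifr read 3669.8 and 2189.8 in wild-type and 11719 and 10312 in knockout cells (1.95). Tnfrsf12a, the receptor of TWEAK, read 9589 and 9171 in wild-type and 1288 and 906 in knockout cells (-3.10). In the list of 12 cytokines and receptors 5 were higher and 5 lower (Lif only through the wild-type arrays), with a median of -0.10, or 0.21 without wild-type array 1. Interferon-stimulated genes gave 7 higher (2 only through the knockout arrays, Iigp1 among them) and 6 lower (1 only through the wild-type arrays) of 22, and the 6 were 3 without wild-type array 2. The immunity-related GTPases split: Iigp1 read 329 and 395 in wild-type and 2820.0 and 2819 in knockout cells (2.91) and Irgm2 301 and 569 in wild-type and 2122 and 1992 in knockout cells (2.27), and Irgm1 was lower, at -1.43. The complement proteases C1ra (2.47) and C1s1 (2.95) and ceruloplasmin, Cp (3.54), were higher, and the metallothioneins Mt1 (-2.95, only through the wild-type arrays) and Mt2 (-1.21) lower.

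Of 4 tested prostaglandin genes 3 were higher, of which Pla2g4a and Ptgis passed only through the knockout arrays, and 1 was lower. Pla2g4a, the phospholipase that releases arachidonic acid, read 89.3 and 279.5 in wild-type and 5622 and 5303 in knockout cells (4.96). Ptgs2, the inducible cyclooxygenase, was the lower one, at 8819.5 and 11579 in wild-type and 1378 and 1839.6 in knockout cells (-2.65 ± 0.171, limma adjusted p = 1.37e-06). The synthases of prostaglandin E2 and prostacyclin, Ptges and Ptgis, read 609 and 579 in wild-type and 3581 and 3119 in knockout cells (2.46) and 219 and 254 in wild-type and 5512 and 3803 in knockout cells (4.19). Of 11 genes of that list on the array 4 passed the filter. Regulators of G protein signalling were likewise split, with Rgs2 (3.09), Rgs4 (2.71) and Rgs16 (2.60) higher, and Rgs10 (-2.56) and Rgs17 (-2.09) lower. S1pr3, a receptor for sphingosine 1-phosphate, read 59.5 and 40.6 in wild-type and 1982 and 2292 in knockout cells (5.04). The 3 higher Rgs genes and S1pr3 passed only through the knockout arrays, and Rgs17 only through the wild-type arrays.

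Metabolic genes moved in both directions. Cholesterol synthesis genes were higher in 10 of 17 cases and lower in 1, with a median of 0.51, and 6 were higher without wild-type array 1. Idi1 read 5149 and 5347 in wild-type and 9425 and 13459 in knockout cells (1.10), Dhcr7, the last enzyme of the pathway, 1239.9 and 1125 in wild-type and 1994 and 2697 in knockout cells (0.96) and Sqle, squalene epoxidase, differed by 0.77. The lower gene was Srebf1, at 6437 and 8359.6 in wild-type and 4157 and 4041 in knockout cells (-0.84), and Srebf2 (0.27) did not pass the test. Of 18 glycolysis and hypoxia genes 8 were lower and 5 higher (Egln3 and Adm only through the knockout arrays), and 5 were lower without wild-type array 1. The glucose transporter Slc2a1 read 3867 and 3286 in wild-type and 1099 and 1711 in knockout cells (-1.37), Hk1 and Pkm differed by -0.86 and -0.82, and Egln3, an oxygen sensor, read 359 and 458 in wild-type and 1956 and 2342 in knockout cells (2.35). Several glutathione transferases were higher and several other Nrf2 targets lower. Gsta4 read 61.6 and 195 in wild-type and 3092 and 3042 in knockout cells (4.59), Gstt3 22.2 and 12.9 in wild-type and 504 and 555 in knockout cells (4.04) and Gstm2 1184 and 856 in wild-type and 5209.6 and 5775 in knockout cells (2.43), against -1.23 for Gclm, -1.07 for Txnrd1 and -1.04 for Gsr. The list held 7 higher (Gsta4 and Gstt3 only through the knockout arrays) and 8 lower of 18.

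Among 14 heat-shock chaperones 5 were higher and 6 lower (Hspa4l only through the wild-type arrays). Hspa4l read 5731 and 7368 in wild-type and 219 and 274 in knockout cells (-4.64) and Hspb1 18520.4 and 23992 in wild-type and 7618 and 9048 in knockout cells (-1.34), while Hsph1, of the same large Hsp70 family as Hspa4l, read 7017 and 7734 in wild-type and 15844 and 20007 in knockout cells (1.27). Ribosomal protein genes were higher in 26 of 32 cases and lower in 0, with a median of 0.48. After quantile normalization 8 were higher and 1 lower, with a median of 0.10, so this shift depends on how the arrays are scaled. Rps6 and Rpl14 stood above the rest, at 2173 and 2785 in wild-type and 9974 and 10979.9 in knockout cells (2.08) and 753 and 1085 in wild-type and 3258 and 2986 in knockout cells (1.77). For Rps9 (0.81) other probe sets gave -0.31 and 0.94. Ribosomal protein genes have many near-identical pseudogenes, whose transcripts these probe sets could share.

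Chromosome medians are given as a description, with no test. Over 1 probe set per gene the median log2 difference was -0.31 on chromosome 3, -0.30 on chromosome 5 and -0.23 on chromosome 4, and it was 0.30 on chromosome 16, 0.28 on chromosome 12 and 0.26 on chromosome 15. Over all tested genes 25.9% were called lower and 25.1% higher. On chromosome 3, 181 of 410 tested genes were called lower (44.1%) and 69 higher (16.8%), and on chromosome 5, 206 of 520 were lower (39.6%) and 61 higher (11.7%). On chromosome 16, 111 of 265 were higher (41.9%) and 30 lower (11.3%). The stimulated arrays, which share no array with these, gave -0.28, -0.33 and -0.29 for chromosomes 3, 5 and 4 and 0.26, 0.20 and 0.13 for chromosomes 16, 12 and 15. Chromosome 10, which carries Med23, had a median of -0.026. Its 18 other tested genes within 5 Mb of Med23 held 7 lower and 1 higher (25.9% and 25.1% over all tested genes). Their median was -0.40. Of the called ones, Moxd1 and Map3k5 passed only through the wild-type arrays and Lama2 only through the knockout arrays. Moxd1, a monooxygenase-like gene, read 968 and 976 in wild-type and 24.8 and 16.2 in knockout cells (-4.77), Map3k5, a stress kinase, 723 and 679 in wild-type and 112 and 112 in knockout cells (-2.49) and Sgk1, a serum- and glucocorticoid-regulated kinase, 11898 and 11801 in wild-type and 3039 and 3370.3 in knockout cells (-1.88). Lama2, a laminin chain on the other side, was higher, at 144 and 341 in wild-type and 1551 and 1800.3 in knockout cells (2.82), with adjusted p = 0.0506 without wild-type array 1. Ccn2, a matricellular growth factor, differed by -0.97. Gene order and chromosomes are from the RefSeq table of GRCm38.p6, and copy number was not measured.

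**Figure D4:**
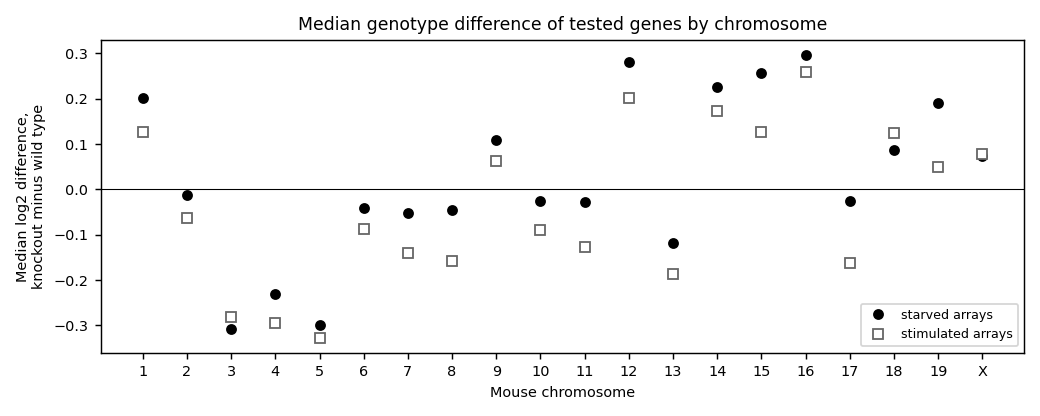
Median log2 difference, knockout minus wild type, over the tested genes of each chromosome in the starved (filled circles) and the stimulated arrays (open squares). Chromosomes 3, 4 and 5 have the lowest medians and chromosome 16 the highest in both pairs of groups, between -0.33 and 0.30.

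The stimulated arrays gave the same contrast in other RNA samples. They were not fully separate from the starved ones: the spread behind both tests was shared, and within a genotype starved and stimulated arrays of the same number deviated together from their group means (correlation over probe sets 0.220 in wild-type and 0.104 in knockout cells). Of the 7023 probe sets called in starved cells, 6488 (92.4%) had the same sign after serum, against 4760 of the 7269 not called (65.5%), and 5094 (72.5%) were called there in the same direction, where 7346 probe sets (51.4%) were called in all. A call in the opposite direction was found for 105. The test of the difference between the starved and the stimulated contrast, limma's interaction, called 415 probe sets (2.90%), of which 170 had a more positive and 245 a more negative difference in starved cells. Of the probe sets called in starved cells 283 (4.03%) were among them. The count of 415 was 127 without stimulated knockout array 1 and 512 without starved knockout array 1, and it was 178, 215, 166, 205 and 201 without stimulated knockout array 2, stimulated wild-type arrays 1 and 2 and starved wild-type arrays 1 and 2.

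For several genes the genotype difference of starved cells was smaller or had the opposite sign after 30 min of serum. Id2 read 1646 and 1545 in stimulated wild-type and 1444 and 1507 in stimulated knockout cells, a difference of -0.11 against 4.33 in starved cells (interaction 4.44 ± 0.329). Fam43a, a gene with a phosphotyrosine-binding domain, read 945 and 556 in wild-type and 13395 and 10739 in knockout cells in the starved state (4.02) and 1224 and 915 against 1468 and 1018 after serum (0.20), an interaction of 3.81 ± 0.380 (adjusted p = 0.00112). Id2, like Atf3 and the Jun probe set used here, had passed the filter through 1 genotype of the starved arrays. After serum neither Id2 nor Fam43a had the wide gap between genotypes seen in starved cells. Dnaja1, a cochaperone, read 18019 and 17477 in wild-type and 8629 and 7266 in knockout cells when starved and 17498 and 17250.2 against 17054 and 16464 after serum (interaction -1.11 ± 0.152, adjusted p = 0.00477). Its starved difference was -1.16 with this probe set and -0.48 with another. The deficits of Jun, Atf3 and Egr1 changed from -4.59, -3.85 and -2.15 to 0.94, 0.53 and -0.15, and that of Dusp1 from -1.55 to 0.52. Ccl2 reversed, from -1.87 to 1.55, with 14526 and 8233 in stimulated wild-type and 30699.6 and 33342 in stimulated knockout cells. Among the largest differences, those of Slit3 (8.10 and 7.39), Asb4 (-8.00 and -8.18) and Cd24a (-5.05 and -4.56) had an interaction that did not pass the test.

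**Figure D5:**
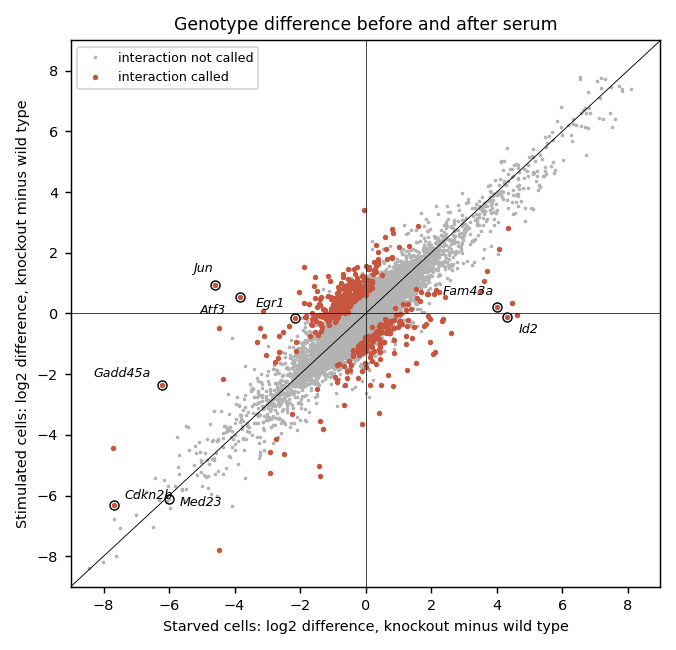
Log2 difference, knockout minus wild type, in starved (x axis) and stimulated cells (y axis) for the 14292 tested probe sets, with those whose 2 differences differed by the interaction test in red and the named genes ringed; the line marks equal differences. Most points lie along the line, while Jun (-4.59 and 0.94) and Id2 (4.33 and -0.11) lie away from it near the x axis.

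Motif shares in the promoters of genes higher and lower in starved knockout cells lay within a few percentage points of each other. The 8103 tested genes had 6620 promoters in the RefSeq table (GRCm38.p6, 250 bases before to 50 after the start), 1631 of higher and 1721 of lower genes. TGACGTCA (CRE, bound by CREB and ATF factors) was on either strand of 2.82% of promoters of higher genes, 3.54% of lower genes and 3.38% of all tested genes. TGACTCA (TRE, bound by AP-1) was in 49 of the 1631, in 3.72% and in 3.38%. CCGGAAGT (an ETS site, the family of ELK1) was in 6.44%, 8.89% and 9.17%, and the CArG box, bound by SRF, in 1.84%, 1.39% and 1.42%. CACGTG (E-box) was in 8.52%, 11.1% and 10.6%, GGGCGG (GC box) in 66.6%, 70.2% and 68.1%, and TATAAA, the letters bound by TBP, in 8.09%, 6.62% and 6.81%. Among ribosomal protein genes the ETS letters were in 8 of 27 promoters (29.6%). Over all 27025 promoters the shares ran from 1.57% for the CArG box to 35.9% for the GC box. No test was made, since genes are not replicates.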

How the data were processed

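Each of 8 arrays measured total RNA of 1 sample, 2 per genotype and state. The intensities were deposited as linear MAS5 signals per probe set, per the submitters' processing notes, and every array had the same trimmed mean (2500.6 to 2500.8), so a change in total RNA per cell would not be seen. Starved arrays had median signals of 863.8 to 924.4. The sources used here do not name the array design. Of 22626 probe sets that were not controls, 20380 carried 1 gene symbol in GEO's platform annotation, 691 several and 1555 none, and genes were named only from the first kind, with symbols updated through their Entrez identifiers in a RefSeq table of GRCm38.p6, which also gave chromosomes and neighbours.

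Signals were tested as log2(signal + 16) with limma 3.58.1 in R 4.3.3 (lmFit and eBayes with a mean-variance trend), with 1 mean per group over all 8 arrays, 4 residual degrees of freedom and Benjamini-Hochberg adjustment over the 14292 probe sets; limma's test gave every adjusted p in the text. For each gene 1 probe set stood in the gene counts, the one with the highest mean log2 signal among those tested. The fit was tested on simulated data. Genes were named by rule: Med23, the 15 highest and 15 lowest called genes with no overlap, the 10 highest and 10 lowest among those above the 40th percentile on all 4 arrays, and up to 5 called members of each list with the largest difference. The comparison and the 46 lists (993 entries) were chosen with earlier results of these data known. Alternatives varied the added constant, filter, scaling, probe sets, trend, arrays and replicate block.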

Additional observations from a re-analysis of the deposited data

Results flagged for a closer look

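Of the genes named above, 34 had a genotype difference in starved cells that differed from that in stimulated cells at an adjusted p under 0.05 in limma's test of the interaction. The values here are the starved difference minus the stimulated one, both knockout minus wild type on the log2(signal + 16) scale, with 2 arrays in each of the 4 groups. Over all 14292 probe sets the same test called 2.90%. The 328 named genes were chosen by rule or after their values were seen, many for a large starved difference. Their count therefore cannot be set against that share, and no explanation was tested. The probe sets used here for Jun, Atf3, Gadd45a, Cdkn2b, Id2, Id4 and Foxc2 passed the filter through 1 genotype of the starved arrays only. For these the filter set the direction of the starved difference.

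Among them 8 immediate early genes had a more negative difference in starved cells: Jun by -5.54, Atf3 by -4.38, Egr1 by -2.01, Jund by -1.86, Junb by -1.25, Myc by -1.15, Klf10 by -0.93 and Ier2 by -0.92. Jund, for example, differed by -1.39 in starved and 0.47 in stimulated cells. Other genes in that direction included the stress and growth arrest genes Gadd45a (-3.86), Pmaip1 (-1.34), Dusp1 (-2.07) and Atf4 (-0.92). Atf4 was lower in starved knockout cells, at -0.36, and differed by 0.56 after serum. Secreted and surface proteins in that direction were Ccl2 (-3.42), Tnfrsf12a (-2.37), Ccn2 (-1.14) and the phosphate transporter Slc20a1 (-2.17). The kinase Sgk1 (-2.22), the cyclooxygenase Ptgs2 (-1.91), the actin-binding Cnn1 (-1.67), the thioredoxin reductase Txnrd1 (-1.16), the cochaperone Dnaja1 (-1.11) and Cdkn2b (-1.38) completed it.

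Genes known as BMP targets were more positive in starved cells: Id2 by 4.44, Id1 by 3.38, Id4 by 2.57, Id3 by 1.76, Smad6 by 1.98 and Smad7 by 0.81. Id1 differed by 2.10 in starved and -1.27 in stimulated cells, and Smad6 by 1.90 and -0.084. The others were Fam43a (3.81), the lineage factors Sox9 (2.76) and Foxc2 (2.57), the receptor Fzd7 (1.88), the inhibitor Spry2 (1.45) and the ligand Pdgfb (2.36). Pdgfb differed by -2.91 in starved and -5.26 in stimulated cells.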

How the results depend on the processing

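In a refit with its own adjustment on 1 probe set per gene, 2071 were called higher and 2130 lower, 1629 passed the 2-fold rule and 248 the interaction, and without probe sets of suffixed names 2137 were higher and 2349 lower. A filter at the 60th percentile left 1816 past that rule, no filter gave 4125 and an interaction count of 250, and a fit without a mean-variance trend gave 211. Leaving out single arrays gave 2622 to 3332 higher, 2763 to 3533 lower and interaction counts of 127 to 512. With median centring 3603 were higher and 3287 lower, and with quantile normalization 3400 and 3587. The starved arrays alone give no interaction.

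Deviations from the group means followed the array numbers within a genotype (correlation 0.220 between the wild-type and 0.104 between the knockout groups) but not between genotypes (0.00723 between the starved groups, -0.0231 to 0.0196 over all 4 such pairs), so the numbers are not taken as a pairing of the genotypes. A fit with the replicate block gave 3412 higher, 3682 lower and 409 for the interaction, and -6.00 for Med23. That fit ended the call of no gene named here. The block gives both genotypes the same effect of the array number. It therefore cannot take up deviations shared only within a genotype, and is no check on them.

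Of the named genes that were called, Col1a1 was the 1 whose sign turned, to -0.12 with quantile normalization. Turns of sign were not counted for named genes that were not called. Calls were lost for 7 genes with no filter, 4 without the trend, 6 with the starved arrays alone, 2 with quantile normalization and 9 to 16 without a starved array. Depth is not defined for arrays. Detection calls were not used here, and for signals near the floor only their low level, not its size, is informative. The number of arrays limits the precision.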
